A study of Mus musculus with 6 samples.

Results

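The Slc25 genes encode the mitochondrial carriers, membrane proteins that exchange ADP for ATP and move phosphate, citrate, amino acids, coenzyme A and other solutes across the inner mitochondrial membrane. Members were all array probes, control spots aside, whose gene name begins with Slc25a: 71 probes for 42 genes, out of 41174 probes on the array. Of the 42 genes, 38 were among the 19598 genes tested. The values describe both kidneys of 3 CD-1 mice, an outbred stock, numbered 495, 485 and 512 in the labels. In each mouse the left kidney lay behind a tied ureter (ligated) and the right kidney, which was not tied, served as the control from the same animal (contralateral). Each of the 6 kidneys was hybridised to 1 single-colour Agilent array, so each group holds 3 kidneys.

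The study's title places the model, unilateral ureteral obstruction, in experimental renal fibrogenesis, and the comparison asks which transcripts differ between an obstructed kidney and its partner. No kidney of an unoperated mouse was analysed here, and the contralateral kidneys come from operated animals. The labels name no genetic change and no drug in either group. Age, sex and the time after ligation are not given in the sources used here. The labels call the material kidney in one field and primary cells in others, and this was not resolved. Of the markers of kidney cells, 8 of 8 proximal tubule genes, 3 of 3 thick limb genes and 3 of 3 podocyte genes passed the filter on dim probes.

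Carriers share a fold built from repeated membrane modules, and each module carries a short signature that begins with proline and holds an acidic and then a basic residue. Most carriers have no cleaved presequence and are inserted into the inner membrane by a dedicated branch of the protein import machinery. The proximal tubule of the kidney is rich in mitochondria and depends on oxidative metabolism, so carriers that feed the respiratory chain, the citric acid cycle and gluconeogenesis are background features of this organ.

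The probes shown here are 9 that, judged by their mapped span, cross an intron. They were chosen because in several genes their estimates lay below those of the gene's other probes, a difference that was not tested. Each is 60 bases long but maps, in the mm8 build that the file headers name, to a longer stretch of genome, and each has a reading frame that is open over all its bases. Capitals mark codons for the carrier signature (proline, any residue, an acidic residue, any pair of residues, a basic residue). Such codons were found in 257 of the 41174 probes, 0.624%. The sequences are written 5′ to 3′ as the deposited scanner tables give them, with the probe's position and strand. The spanning probe of Slc25a46 is described with the values and its sequence is not shown.
Slc25a3, chr10:90548015-90548556, minus strand: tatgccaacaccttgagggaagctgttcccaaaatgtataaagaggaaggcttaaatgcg
Slc25a17, chr15:81150917-81154324, minus strand: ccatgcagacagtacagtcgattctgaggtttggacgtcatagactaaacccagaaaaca
Slc25a25, chr2:32239421-32239750, minus strand: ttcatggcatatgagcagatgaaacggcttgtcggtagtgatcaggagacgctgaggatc
Slc25a26, chr6:94563861-94564654, plus strand: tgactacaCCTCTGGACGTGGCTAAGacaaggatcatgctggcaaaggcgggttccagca
Slc25a30, chr14:74503789-74504357, minus strand: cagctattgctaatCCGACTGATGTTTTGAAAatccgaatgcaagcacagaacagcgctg
Slc25a33, chr4:148593123-148596256, minus strand: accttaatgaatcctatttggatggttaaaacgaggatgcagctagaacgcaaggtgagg
Slc25a39, chr11:102221126-102221798, minus strand: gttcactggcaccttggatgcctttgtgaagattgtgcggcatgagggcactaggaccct
Slc25a27, chr17:43112725-43116436, minus strand: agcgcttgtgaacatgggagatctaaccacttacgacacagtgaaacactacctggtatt
Slc25a43, chrX:33207044-33208488, plus strand: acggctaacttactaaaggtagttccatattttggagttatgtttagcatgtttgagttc

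All 6 arrays hold 43379 spots besides controls, with 0 saturated spots on each. The 75th percentile of the processed intensity lay between 670.7 and 1106 on the contralateral arrays and between 1068 and 1432 on the ligated arrays. Spots well above background made up 65.71% to 69.46% on contralateral and 72.09% to 74.65% on ligated arrays. Levels below are log2 intensities relative to the 75th percentile of the same array, so 0 is that percentile, and levels of different probes are not compared. A change is the ligated minus the contralateral level, fitted with limma within mice. A gene was called where its Benjamini-Hochberg adjusted p over all 19598 genes was under 0.05.

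The contralateral kidney of mouse 512 stood apart from the others. Its level was below that of both other contralateral kidneys in 33 of the 38 carrier genes (86.8%, against 44.2% of all genes tested) and above both in 4. Its median difference from the mean of the other contralateral kidneys was -0.74 over the carrier genes and -0.03 over all genes. The ligated kidney of mouse 512 lay as far below those same contralateral kidneys (median -1.25) as the other ligated kidneys did (-1.13). The smallest change of the 3 mice was in mouse 512 for 31 of the 38 genes. Mouse 512 was hybridised on 1 slide, and mice 495 and 485 together on another, so the mouse and the slide cannot be told apart here. The SD among contralateral kidneys had a median of 0.47 over the carrier genes against 0.18 among ligated kidneys, and it was the larger of the pair in 33 of 38 genes (86.8%, against 75.5% of all genes).

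Carrier transcripts were mostly lower in the ligated kidneys. Of the 38 tested genes, 19 fell, 1 rose and 18 did not pass the test. Among all 19598 genes, 14.7% were called lower and 16.0% higher. The 38 carrier genes had a median change of -0.92 (range -2.36 to 2.38), against -0.01 for all genes, and 35 of the 38 estimates were negative. By animal, the family's median change came to -1.10 (mouse 495), -1.15 (mouse 485) and -0.49 (mouse 512). The change had 1 sign in all 3 mice in 35 of 38 genes (92.1%, against 72.2% of all genes). In 33 of 38 genes the ligated kidney was the lower in all 3 mice (86.8%, against 37.9% of all genes). In 26 genes every ligated kidney was below every contralateral one (68.4%, against 28.8%), and in 2 genes every ligated kidney was above (24.7% of all genes). At an unadjusted p under 0.05 there were 31 of 38 carrier genes, against 50.2% of all genes. Fewer cells of a type and less RNA per cell cannot be told apart in these samples.

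These counts moved with the animals and the scaling. Without mouse 512, which leaves the slide of the other mice, 31 carrier genes were called lower and 2 higher, with 28.9% of all genes lower and 27.3% higher. Without mouse 495 or without mouse 485 no gene on the array was called by limma, while 15 and 16 of the 38 carrier genes had an unadjusted p under 0.05, against 25.3% of all genes in each of these fits. Centring each array on its median moved the median of all genes to -0.32 and called 31 carrier genes lower and 1 higher, with 5938 genes lower and 2561 higher overall (2884 and 3135 in the scaling used here). Centring on the spike-in spots moved that median to 0.32 and called 4 carrier genes lower and 1 higher, with 654 and 2388 overall. The carrier median minus the median of all genes was -0.91 under each of these scalings. With no filter on dim probes, which raised the genes tested to 28468, 6 carrier genes were called lower and 0 higher, with 3.17% of all genes lower and 6.18% higher.

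**Figure D1:**
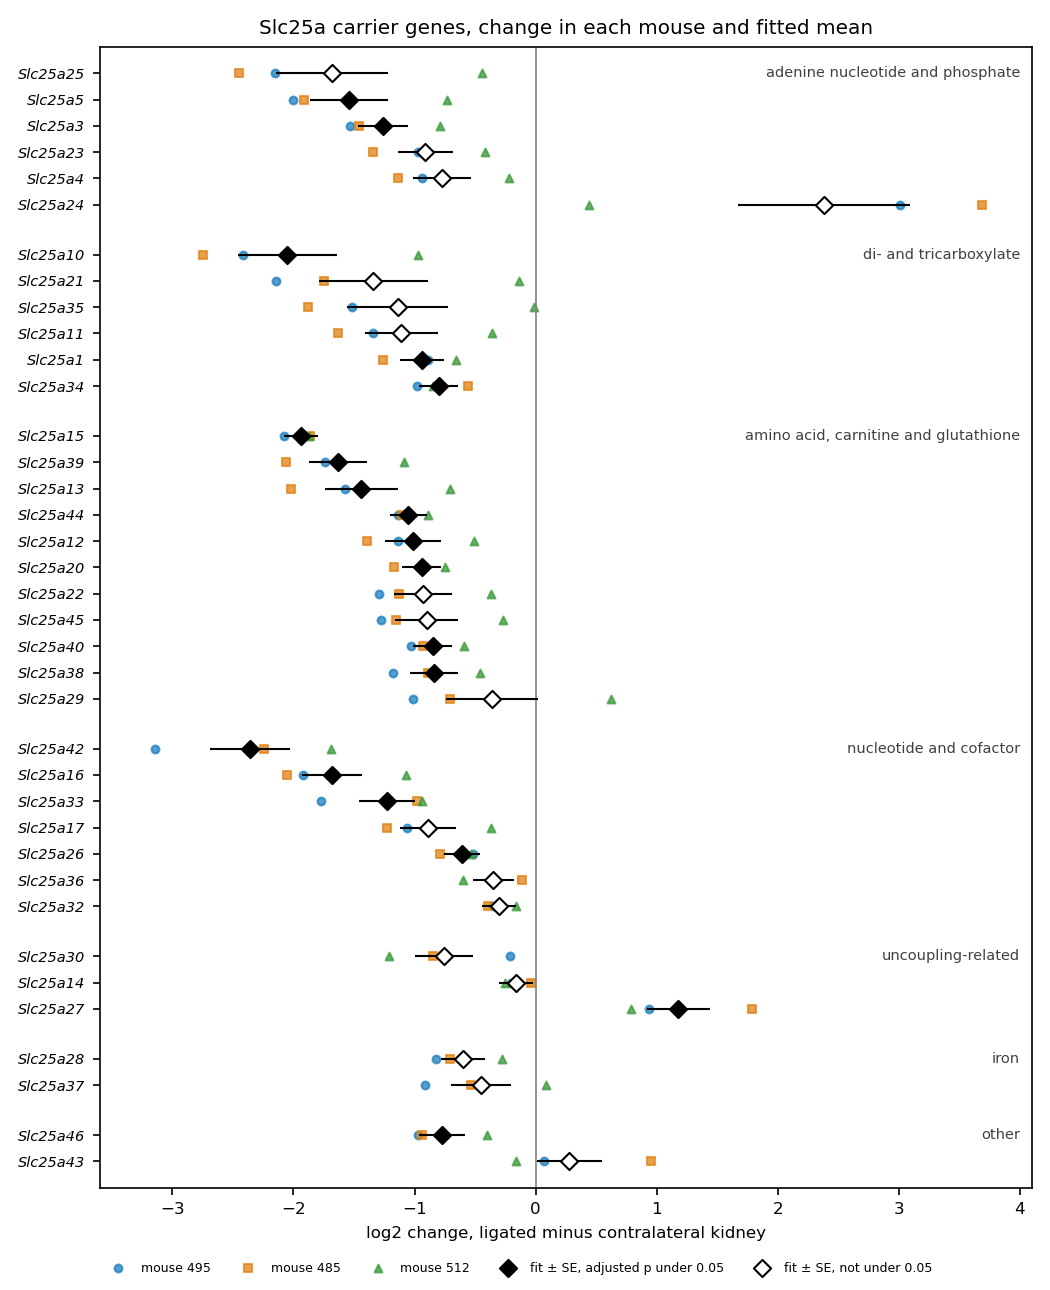
Change of the tested carrier genes, 1 gene left out, grouped by role, on a log2 scale (x axis, ligated minus contralateral). Coloured points are the 3 mice, diamonds the fitted mean with its SE, filled where the adjusted p was under 0.05; the diamonds of Slc25a24, Slc25a27 and Slc25a43 lie right of 0 and all others left of it.

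Of the carriers of adenine nucleotides and phosphate, 6 of 8 genes were tested, 2 fell and 0 rose, with a median change of -1.08. These proteins supply ADP and phosphate to ATP synthase and release ATP to the cytosol. Slc25a5, the widely expressed ADP/ATP carrier (probe at chrX:33229925-33229984), stood at 7.04, 7.03 and 5.68 contralaterally (mice 495, 485 and 512, an order kept below) and at 5.04, 5.13 and 4.95 after ligation. The groups did not overlap, and the ligated kidneys were closer to each other than the contralateral ones were. Its change was -1.54 ± 0.32 (SE, n = 3 mice), 2.92-fold lower (limma adjusted p = 0.0375). Slc25a3, the phosphate carrier, stood at 6.08, 6.17 and 5.33 contralaterally and at 4.55, 4.71 and 4.54 after ligation, again without overlap. It fell by 1.26 ± 0.21 on the log2 scale, 2.39-fold (limma adjusted p = 0.0311). Slc25a4, the ADP/ATP carrier of heart and muscle, went from 6.64, 6.50 and 5.82 to 5.70, 5.35 and 5.60. Every ligated kidney was below every contralateral one, but the change of -0.77 (95% interval -1.43 to -0.11) did not pass the test (limma adjusted p = 0.0746).

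The calcium-regulated ATP-Mg/phosphate carriers, which adjust the adenine nucleotide pool of the matrix, did not move as one. Slc25a24 had contralateral levels of -1.27, -2.19 and 1.50 in mice 495, 485 and 512 and ligated levels of 1.74, 1.50 and 1.94. All ligated kidneys were at or above the highest contralateral one, and the contralateral kidney of mouse 512 sat beside the ligated kidneys. Its change of 2.38 ± 0.71 (SE, n = 3 mice) was the largest in size in the family but did not pass (limma adjusted p = 0.0685). Without mouse 512 it was called higher (limma adjusted p = 0.00285), and it was called with spike-in centring (0.0499). Slc25a25 had levels of 2.50, 4.70 and 0.99 contralaterally and of 0.35, 2.25 and 0.56 after ligation. Mouse 485 was highest in both groups, which overlapped, and the change was -1.68 ± 0.46 (limma adjusted p = 0.0594). Slc25a23 had a change of -0.91 (limma adjusted p = 0.0524), without overlap of the groups.

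The di- and tricarboxylate carriers exchange citric acid cycle intermediates with the cytosol, for gluconeogenesis, lipid synthesis and redox shuttles. All 6 were tested; 3 fell, 0 rose, and the median change was -1.12. Slc25a10, the dicarboxylate carrier (probe at chr11:120315101-120315160), had contralateral levels of 5.41, 6.01 and 3.69 and ligated levels of 2.99, 3.26 and 2.71. The groups did not overlap, although the contralateral kidney of mouse 512 lay closer to the ligated kidneys than to its own group. Slc25a10 fell by 2.05 ± 0.41 on the log2 scale, 4.13-fold (limma adjusted p = 0.0359). Slc25a1, the citrate carrier, fell from 3.20, 3.53 and 2.94 to 2.32, 2.27 and 2.28, a 1.91-fold difference (limma adjusted p = 0.0352). Its 3 ligated kidneys were almost level with each other.

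Slc25a34, an orphan carrier with a dim probe, went from -4.92, -4.67 and -5.16 to -5.90, -5.23 and -6.01 and fell by 0.80 ± 0.16 (limma adjusted p = 0.0368). The oxoglutarate/malate carrier Slc25a11, a component of the malate-aspartate shuttle, had a change of -1.11 and separate groups but missed the threshold (limma adjusted p = 0.0581). Slc25a21, which carries oxodicarboxylates of lysine breakdown, had changes of -2.14, -1.75 and -0.14 in mice 495, 485 and 512. Slc25a35, a relative of Slc25a34, had changes of -1.52, -1.88 and -0.01. In both genes mouse 512 showed almost no change, and neither passed (limma adjusted p = 0.0863 and 0.106).

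The carriers of amino acids, carnitine and glutathione had the most called members: 11 of 13 genes were tested, 8 fell and 0 rose, with a median change of -0.94. Slc25a15, the ornithine carrier of the urea cycle and of ornithine metabolism (probe at chr8:23842945-23843004), had contralateral levels of -0.23, -0.09 and -0.58 and ligated levels of -2.31, -1.95 and -2.46. The groups were far apart and the change in mouse 512 (-1.87) was as large as in mouse 485 (-1.86). It fell by 1.94 ± 0.14 on the log2 scale, 3.83-fold, with a 95% interval of -2.34 to -1.54 and the smallest adjusted p in the family (limma adjusted p = 0.0221). Slc25a39, a carrier that brings glutathione into mitochondria (probe at chr11:102219315-102219374), went from 6.91, 7.14 and 5.96 to 5.18, 5.08 and 4.87. The groups did not overlap, and the 3.09-fold difference passed (limma adjusted p = 0.0279). Its relative Slc25a40 fell by 0.85 ± 0.16 (limma adjusted p = 0.0348).

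Slc25a13 and Slc25a12 are the aspartate/glutamate carriers citrin and aralar, which complete the malate-aspartate shuttle. Slc25a13 had levels of 3.65, 3.78 and 2.51 contralaterally and of 2.09, 1.76 and 1.79 after ligation, and fell 2.70-fold (limma adjusted p = 0.0387). Slc25a12 went from 2.74, 2.85 and 2.20 to 1.60, 1.46 and 1.69 and fell 2.02-fold (limma adjusted p = 0.0429). In both genes the groups were separate and the contralateral kidney of mouse 512 was the lowest of its group. Slc25a44, a carrier of branched-chain amino acids, fell evenly, with changes of -1.14, -1.10 and -0.89 in mice 495, 485 and 512 (limma adjusted p = 0.0266). Slc25a20, which brings acylcarnitines to fatty acid oxidation in the matrix, had contralateral levels of 0.26, 0.60 and 0.04 and ligated levels of -0.65, -0.57 and -0.71. No ligated kidney reached the lowest contralateral one, and the fall was 1.92-fold (limma adjusted p = 0.0311).

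Slc25a38, which imports glycine for haem synthesis, fell by 0.84 ± 0.20 on the log2 scale (limma adjusted p = 0.0463). Slc25a22, a glutamate carrier, had separate groups and a change of -0.93, but missed the threshold (limma adjusted p = 0.0532). The orphan Slc25a45 had a change of -0.90 (limma adjusted p = 0.0656). Slc25a29, a carrier of basic amino acids, had a change of -1.01 and -0.71 in mice 495 and 485 but of 0.62 in mouse 512, whose contralateral kidney was the lowest of all 6 at -2.58. Its mean change of -0.36 has a 95% interval of -1.41 to 0.68, which includes a 2-fold fall (limma adjusted p = 0.47).

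Of the 8 carriers of nucleotides and cofactors, all tested, 5 fell and 0 rose, with a median change of -1.06. Slc25a42 imports coenzyme A, the acyl carrier of the citric acid cycle and of fatty acid oxidation, into the matrix (probe at chr8:73117294-73117353). Its levels were -1.89, -1.69 and -3.06 contralaterally and -5.03, -3.94 and -4.75 after ligation. The groups did not overlap, and the fall of 2.36 ± 0.33 on the log2 scale, 5.12-fold, was the largest among the called carriers (limma adjusted p = 0.0265). Slc25a16, which is also linked to coenzyme A in mitochondria, went from 1.15, 1.66 and 0.06 to -0.77, -0.39 and -1.01. It fell by 1.68 ± 0.25, 3.21-fold (limma adjusted p = 0.0283), again with every ligated kidney below every contralateral one.

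Slc25a33, which carries pyrimidine nucleotides, had changes of -1.77, -0.98 and -0.94 in mice 495, 485 and 512. It fell 2.35-fold (limma adjusted p = 0.0341), although its groups overlapped: the ligated kidney of mouse 485 was above the contralateral kidney of mouse 512. Slc25a26, which imports S-adenosylmethionine, fell by 0.61 ± 0.15 (limma adjusted p = 0.0483).

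Slc25a17, a cofactor carrier of the peroxisome, had a change of -0.89 with overlapping groups (limma adjusted p = 0.0533). Slc25a36, the second pyrimidine nucleotide carrier, had a change of -0.35 with a 95% interval of -0.82 to 0.11. Slc25a32, a carrier of folate and FAD, had a change of -0.30 with an interval of -0.70 to 0.10, and with spike-in centring its estimate was 0.04. Both gave an adjusted p of 0.168 with limma.

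Of the 3 uncoupling-related carriers, all tested, 0 fell and 1 rose, with a median change of -0.16. Slc25a27, a relative of the uncoupling proteins best known from neural tissue (probe at chr17:43105194-43105253), had contralateral levels of -3.53, -4.07 and -3.23 and ligated levels of -2.58, -2.28 and -2.44. All ligated kidneys were above all contralateral ones, and the gene rose by 1.18 ± 0.26 on the log2 scale, 2.26-fold (limma adjusted p = 0.0409). The call did not hold with quantile normalization (limma adjusted p = 0.0564), normexp background correction (0.0626), no filter on dim probes (0.0638), the mean of its probes (0.0581) or spike-in centring (0.0716). The other probes of Slc25a27 that passed the filter were not called (limma adjusted p = 0.0604 and 0.0734). Slc25a30, an uncoupling-related carrier known from the kidney, had levels of 1.00, 1.08 and 1.38 contralaterally and of 0.79, 0.23 and 0.17 after ligation. Mouse 512 had the largest change of the 3 mice there, -1.21, and mouse 495 the smallest, -0.21, and the mean of -0.76 did not pass (limma adjusted p = 0.0809). Slc25a14 had changes of -0.20, -0.04 and -0.25, a mean of -0.16 with a 95% interval of -0.56 to 0.23, and an estimate of 0.17 with spike-in centring.

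The mitoferrins bring iron to haem and iron-sulphur cluster synthesis; both were tested and neither passed. Slc25a28, the mitoferrin expressed in most tissues, went from 2.75, 2.68 and 2.32 to 1.93, 1.97 and 2.05, a change of -0.60 without overlap (limma adjusted p = 0.0684). Slc25a37, the mitoferrin known from erythroid cells, had changes of -0.91, -0.53 and 0.09 in mice 495, 485 and 512 (limma adjusted p = 0.209). Of the remaining carriers, Slc25a46, an outer membrane protein of mitochondrial dynamics, went from 3.15, 3.22 and 2.67 to 2.19, 2.28 and 2.26. It fell by 0.77 ± 0.19 without overlap of the groups (limma adjusted p = 0.0481). Slc25a43, an orphan whose probe lies at chrX:33207044-33208488 on the same chromosome as Slc25a5, had a change of 0.28 (95% interval -0.47 to 1.04). Its estimate was below 0 with quantile normalization (-0.03), median centring (-0.02) and normexp (-0.07).

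**Figure D2:**
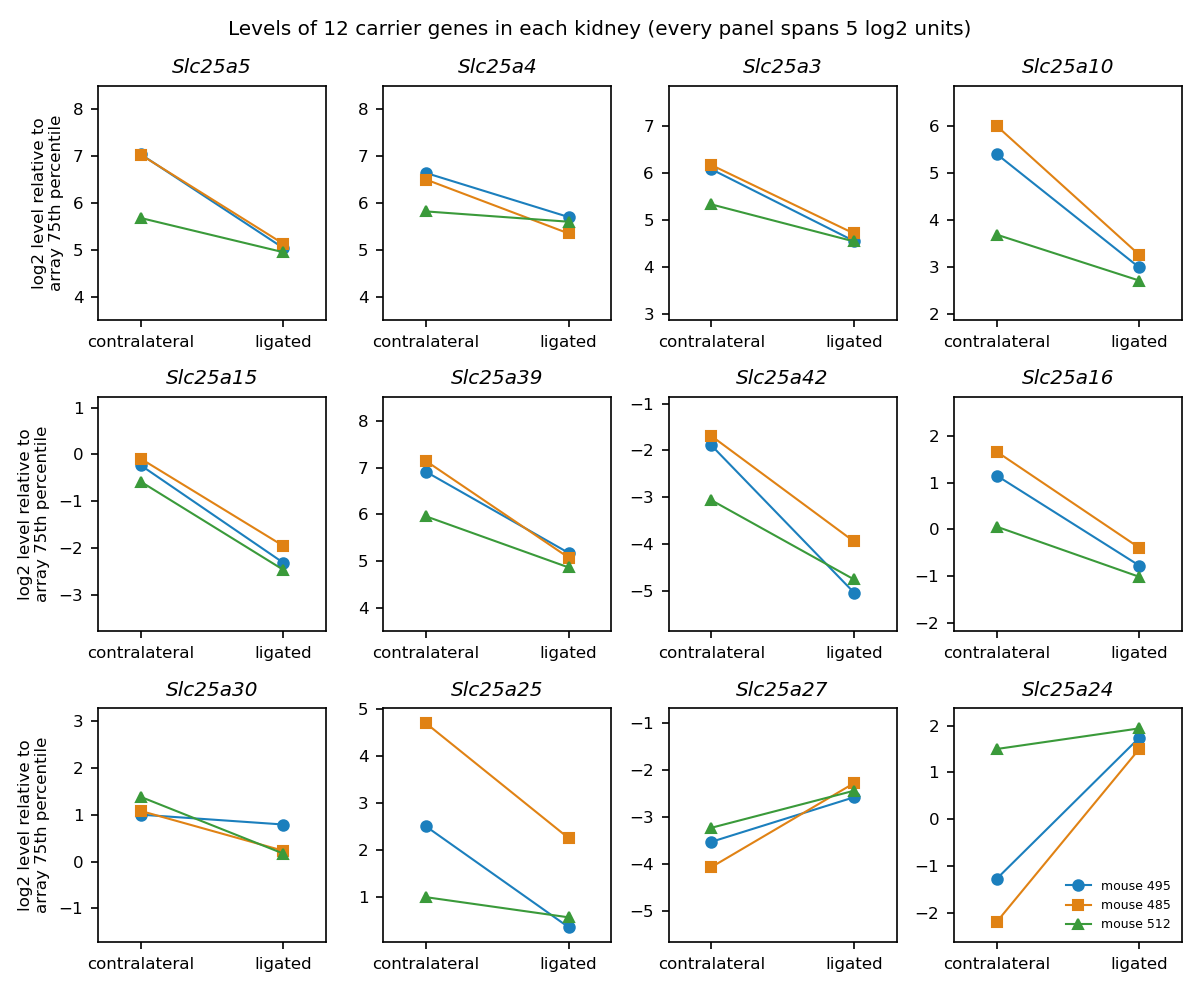
Levels of 12 carrier genes in each kidney, as log2 intensity relative to the array's 75th percentile (y axis), with a line for each mouse from its contralateral to its ligated kidney; all panels span the same number of log2 units. The lines of Slc25a15 run nearly parallel, while the contralateral kidney of mouse 512 lies apart from the other contralateral kidneys in Slc25a5, Slc25a10 and Slc25a24 (1.50 against -1.27 and -2.19).

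The 4 members that were not tested were dim. Slc25a18, a glutamate carrier, and Slc25a41, an ATP-Mg/phosphate carrier, were above background on 0 of 6 arrays. Slc25a2, an ornithine carrier, and Slc25a31, the ADP/ATP carrier of the testis, were each above background on 1 ligated array only. No change is given for them. All 38 tested genes were above background on all 6 arrays with the probe that stood for the gene, so none passed the filter through 1 group alone.

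Among related carriers of the same role group, 10 chosen pairs could be compared within mice. The pair of Slc25a22 and Slc25a18 could not, because Slc25a18 was not tested. With 3 mice the exact two-sided sign-flip permutation test cannot give a p below 0.25, so none of the 10 differences could pass the threshold. Slc25a4 fell short of Slc25a5 in size in all 3 mice: the change of Slc25a4 minus that of Slc25a5 was 1.05, 0.76 and 0.51 (mean 0.77 ± 0.27 SD, n = 3, exact permutation p = 0.25, 0.3125 after Benjamini-Hochberg adjustment over 10 pairs). Slc25a10 minus Slc25a11 was -0.94 ± 0.28, Slc25a39 minus Slc25a40 -0.78 ± 0.32, Slc25a33 minus Slc25a36 -0.88 ± 0.54 and Slc25a12 minus Slc25a13 0.42 ± 0.21 (SD, n = 3), each with 1 sign in all 3 mice and an exact permutation p of 0.25. The ATP-Mg/phosphate carriers lay farthest apart: Slc25a24 minus Slc25a25 was 5.16, 6.14 and 0.88 in mice 495, 485 and 512, and Slc25a23 minus Slc25a24 was -3.98, -5.03 and -0.86. Slc25a14 minus Slc25a30 was 0.59 ± 0.51 (SD, n = 3, exact permutation p = 0.25). The mitoferrins (Slc25a37 minus Slc25a28, 0.15 ± 0.23, SD) and Slc25a34 minus Slc25a35 (0.34 ± 1.10, SD) changed sign between mice.

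Several probes were available for 20 of the 42 genes and 1 probe for the other 22. Of the 71 probes, 63 passed the filter on dim probes, and 27 of these were called lower and 1 higher (14.9% of all 29093 probes that passed were called lower). The estimate was negative for 55 probes and positive for 8. Of the 18 genes with several probes that passed, 1 had probes of opposite sign: Slc25a40, for which a dim probe, above background on 1 of 3 contralateral and 3 of 3 ligated arrays, was at least 1.51-fold higher after ligation and was not called (limma adjusted p = 0.0806). Such bounds set the bright group against the lowest signal above background on each array, or the dim probe's own where that was higher.

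The intron-spanning probes, a group noticed after the values had been seen, gave the more negative change in most genes that had one. Of 10 genes with a spanning probe and at least 1 other, the spanning probe was below all others in 8. The same count over all genes on the array is not given here, so this share has no background beside it. For Slc25a3 the spanning probe, which stood for the gene, changed by -1.26, whereas the other probes, whose sequence comes from a cDNA clone, changed by -0.37 and -0.20 and did not pass (limma adjusted p = 0.0981 and 0.581). Those clone probes were dim, with mean contralateral levels of -1.73 and -1.97, where the spanning probe had 5.86. For Slc25a26 the spanning probe, whose bases include the signature codons, changed by -1.18 ± 0.15 against -0.61 for the other. For Slc25a30 the spanning probe, which also holds signature codons, had levels of -1.76, -1.30 and -1.45 contralaterally and of -2.83, -2.61 and -2.69 after ligation. Those groups did not overlap, and the change of -1.21 ± 0.14 was called (limma adjusted p = 0.0236), while the other probes of the gene changed by -0.89 and -0.76 and were not. By animal, the spanning probe of Slc25a30 changed more negatively than the mean of its other probes in 2 of 3 mice.

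The spanning probe of Slc25a17 was called as well, at -1.30 (limma adjusted p = 0.0279), while its other probes, at -0.89 and -0.87, were not. For Slc25a25 the spanning probe at -1.80 (limma adjusted p = 0.0339) and another at -1.65 (0.0401) were called, and the brightest probe, at -1.68, was not (0.058). The spanning probe was also the lowest for Slc25a33 (-1.57 against -1.23), Slc25a39 (-1.79 against -1.63) and Slc25a46 (-0.92 against -0.77 and -0.36). The spanning probe of Slc25a43 was not below the other (0.28 against 0.21). That of Slc25a27 was above background on 1 of 3 contralateral arrays and is only bounded, at least 1.56-fold higher after ligation, so it has no order against the other probes (1.18 and 1.20). The probes of a gene share the same 6 RNA samples, and the differences between probes were not tested.

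**Figure D3:**
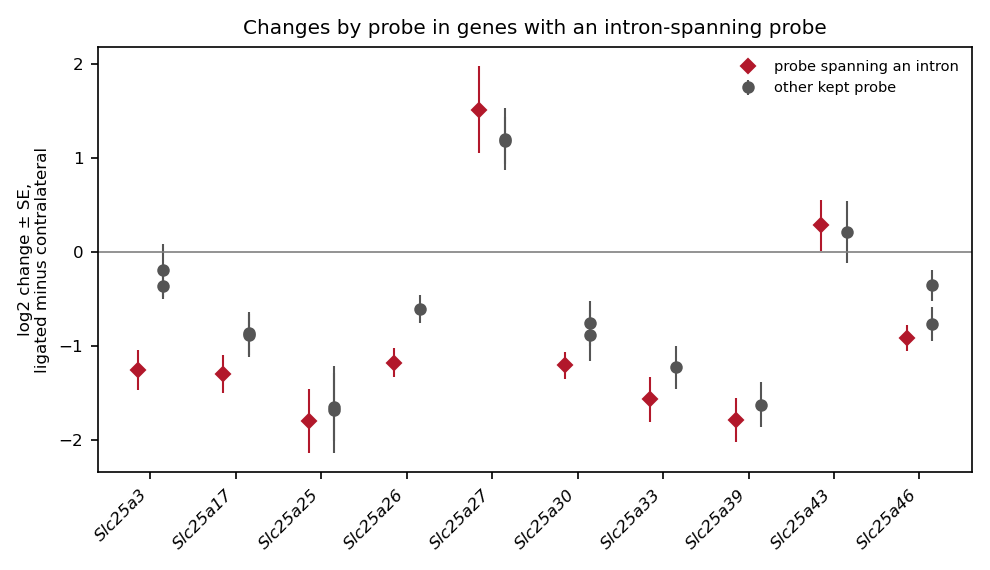
Log2 change with its SE (y axis, ligated minus contralateral, n = 3 mice) for every probe that passed the filter in the 10 genes with an intron-spanning probe. Diamonds are spanning probes and circles the other probes of the gene; the diamond of Slc25a27 rests on a probe above background on 1 of 3 contralateral arrays. The diamond is the lowest symbol in 8 genes, by the widest gap in Slc25a3 (-1.26 against -0.37 and -0.20).

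Family members that the array lists under names without Slc25a were counted apart. Of 8 such genes, 6 were tested, 3 fell and 0 rose, with a median change of -0.58. Slc25a48, a carrier of choline, had contralateral levels of -0.83, -0.63 and -0.63 and ligated levels of -2.51, -2.30 and -2.34. In this gene mouse 512 was level with the others, and it fell 3.23-fold (limma adjusted p = 0.0221). Mtch2, a carrier-like protein of the outer membrane, fell by 1.22 ± 0.17 (limma adjusted p = 0.0265), and Slc25a51, the NAD carrier, by 0.97 ± 0.19 (limma adjusted p = 0.0352). Ucp2, an uncoupling protein, had a change of 0.73 (limma adjusted p = 0.14), and Ucp1 and Ucp3 were not above the filter on dim probes.

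Other mitochondrial gene groups are given beside the family because carriers work with them. Of all 19598 genes tested, 14.7% were called lower and 16.0% higher. Of 22 genes of protein import, 17 fell and 0 rose, with a median change of -0.96, among them Dnajc19 (-1.66), Timm9 (-1.46) and Timm17a (-1.45). Of 34 tested enzymes that make or use carrier substrates, 20 fell and 0 rose, with a median change of -1.22. Pyruvate carboxylase, Pcx, fell by 2.66 ± 0.43 (limma adjusted p = 0.03), glycerol phosphate dehydrogenase, Gpd1, by 2.16 ± 0.36 (0.0309) and Bckdha, of branched-chain amino acid breakdown, by 1.80 ± 0.40 (0.0414).

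Of 12 genes of mitochondrial dynamics and cristae, 7 fell and 0 rose (median -0.86), the largest falls being those of Immt (-1.32), Phb (-1.26) and Chchd3 (-1.24). Of 22 transporters of the mitochondrial membranes outside the family, 9 fell and 2 rose (median -0.80), or 40.9% and 9.09%, against 14.7% and 16.0% of all genes. The pyruvate carrier subunit Mpc1 had levels of 5.71, 5.94 and 4.47 contralaterally and of 3.67, 3.85 and 3.26 after ligation, and fell 3.44-fold without overlap (limma adjusted p = 0.0257). Mcub, the subunit that damps the calcium uniporter, went the other way, from -5.79, -6.60 and -4.10 to -2.68, -2.33 and -2.53. It was above background on 2 of 3 contralateral arrays and passed the filter through its ligated kidneys alone. Its rise is therefore only bounded, at least 6.71-fold, measured against the lowest signal above background. Letm1, an ion exchanger of the inner membrane, was above background on 2 of 3 ligated arrays and passed through its contralateral kidneys alone. It was at least 2.81-fold lower after ligation. The counts above include Mcub and Letm1, whose calls are not read as support because of that filter. The other 20 genes of that list were above background on all 6 arrays. With a filter on all 6 arrays, 11 of 20 fell and 1 rose, against 19.3% and 14.1% of all genes.

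**Figure D4:**
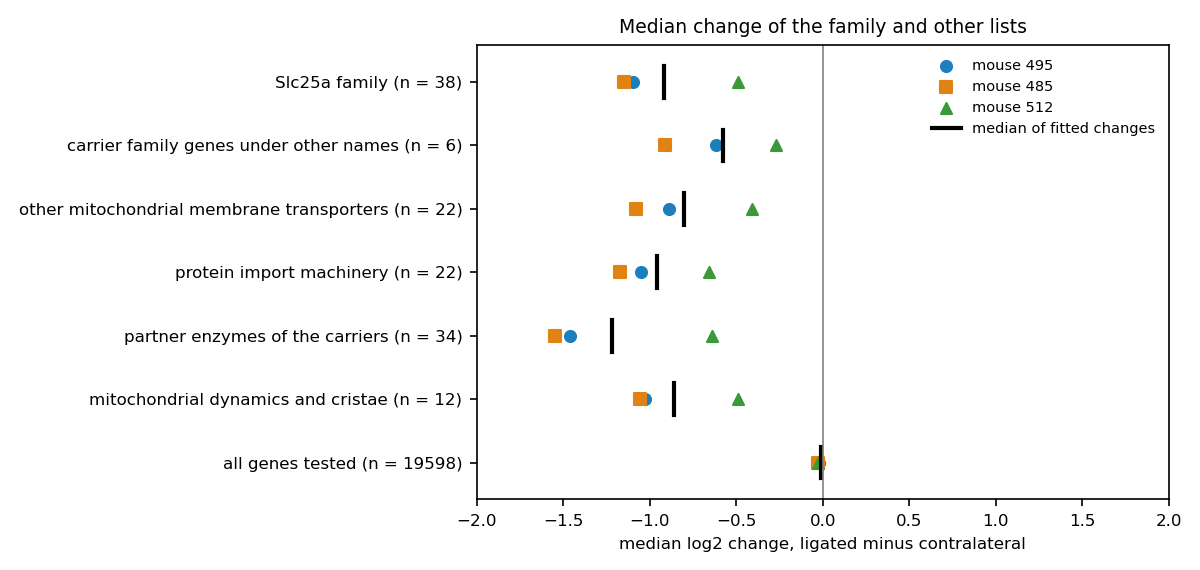
Median log2 change (x axis, ligated minus contralateral) of the 38 carrier genes, of 5 other mitochondrial lists and of all genes tested. Black bars are medians of the fitted changes and coloured points the medians within each mouse; the family bar lies at -0.92 and that of all genes at -0.01, and mouse 512 is the point nearest 0 in each mitochondrial list.

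Markers of some cell types fell in the ligated kidneys and markers of others rose. Among all genes tested, 14.7% were called lower and 16.0% higher. Of 8 proximal tubule genes, 4 fell and 0 rose (median -2.25), and their mean level ranged from 4.48 to 6.92 in contralateral and from 3.23 to 4.30 in ligated kidneys, with mouse 512 the lowest contralateral value. Of 5 collecting duct genes, 3 fell (median -2.05), with mean levels of 0.18 to 1.83 and -1.13 to -0.45. Macrophage genes rose in 5 of 6 cases (median 3.09), from 0.06 to 2.12 up to 3.57 to 3.62, and fibroblast and myofibroblast genes in 4 of 5 (median 2.83), from -0.38 to 2.06 up to 3.09 to 3.78, mouse 512 being the highest contralateral value in both. The fibroblast and myofibroblast gene not called was Acta2, with a change of 0.30 and overlapping groups (limma adjusted p = 0.174). T cell genes rose in 4 of 5 cases (median 2.86) and endothelial genes in 2 of 4 (median 0.77). Of 4 B cell genes (median 1.94) only Cd79b was called higher. Of these, Cd2 and Cd79a were above background on 2 and 1 of the 3 contralateral arrays and passed the filter through the ligated kidneys alone. The 4 T cell genes that rose include Cd2, while Cd79a was not called. None of 3 thick limb, 3 podocyte or 3 erythroid genes passed in either direction (medians -0.17, 0.22 and 0.31). The part of these cell types in the changes of the carriers was not tested.

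Markers of tissues beside the kidney were mostly below the filter. Of 5 fat genes, Adipoq, Plin1, Cfd and Lep were not tested and the remaining 1 did not pass, and of 5 muscle genes 1 was tested and rose. Of 5 urothelial genes 2 were tested and neither passed, and of the adrenal genes 2 were tested and neither passed. The urothelial gene Krt20 had changes of 6.23, 5.60 and 0.72 in mice 495, 485 and 512, without overlap of the groups (limma adjusted p = 0.0672). The other, Upk1a, had a change of -0.15. Slc12a3, the 1 tested marker of the distal convoluted tubule, fell by 1.84 on the log2 scale.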

How the data were processed

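Cy3-labelled cRNA was made from total RNA of 6 kidneys, according to the labels. For each kidney the authors deposited a scanner table, with a linear intensity that had been background-subtracted and detrended, per the file headers, and flags of 0 or 1 for spots above background, saturated or outlying. Feature Extraction is version 10.5.1.1 per the file headers and 9.1 per the submitters' processing notes, which was not resolved. The deposited value table holds a linear ratio: the processed signal over the array's median (62.76 to 175.6, nearly all spots within 0.002895%), so scale and centring are known from the values.

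From these, log2 of the processed signal minus the array's 75th percentile was taken. Controls, outlier spots (43 to 79 per array) and 24 probes flagged on an array were dropped. A probe passed where all 3 arrays of a group had it above background (29093 probes), and a gene took the value of its brightest such probe. Other lists were matched by current symbols through RefSeq accessions (24375 probes) or file names (16799 probes). Slc25a47, Slc25a48 and Slc25a51 joined their list after the files were read, because the array uses older names. The mm8 annotation was not used here, so exons and UTRs are not given. limma 3.58.1 in R 4.3.3 fitted mouse and group (residual df 2, prior df 2.06). The pairing comes from the animal numbers in the labels: deviations of a mouse's kidneys correlated (r = 0.194, 0.481 and 0.271 in mice 495, 485 and 512), each more than with any other mouse. P-values rest on the spread of the within-mouse change among 3 mice and on limma's prior variance, and the number of mice limits the precision. The script was tested on simulated data.

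The named genes are the other family members, with values by kidney for called members with the largest changes in each role and, for a role without calls, for the member of lowest p. From each other list the rule takes the 3 called members with the largest changes. Ucp2 and the further members shown by kidney were added after their values were seen. The values of 1 tested member are not reported here, and the counts include it. Members and lists were chosen with earlier results of these data known. The alternatives changed the scaling, the background correction, the filter, the block, the variance model, the probe rule, the source of values and the mice; leaving out the contralateral kidney of mouse 512 was added after the data were seen.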

Additional observations from a re-analysis of the deposited data

How the results depend on the processing

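The 19 carrier genes called lower became 16 with quantile normalization (14.7% of all genes called lower) and 21 with normexp (14.2%). They became 22 with a filter on all 6 arrays (19.3%), 23 with an intensity trend (18.4%) and 20 with the mean of the probes (13.9%). They became 31 with median centring and with the deposited value table (30.3% in each), 4 with spike-in centring (3.34%) and 6 with no filter on dim probes (3.17%). With the processing used here the share was 14.7%. With no replicate block 16 were called lower, 15 of them also called with the block: Slc25a26, Slc25a33, Slc25a34 and Slc25a38 were not called without it (limma adjusted p = 0.0565, 0.0743, 0.0647 and 0.0672) and Slc25a28 was (0.0461). No other carrier's call moved with the block, and without it 14.2% of all genes were called lower. With the slide as the block 24 carrier genes were lower and 2 higher, against 20.3% and 18.3% of all genes. Leaving out a mouse gave between 0 and 31 carrier genes called lower and between 0 and 2 higher, with medians from -1.13 to -0.82. Of all genes, those fits called 0% to 28.9% lower and 0% to 27.3% higher. An alternative without the contralateral kidney of mouse 512 and with no replicate block was added after the data were seen. It called 30 carrier genes lower and 2 higher, against 30% and 26.3% of all genes. The 1 called higher, Slc25a27, became 0 with the mean of the probes, no filter, normexp and quantile normalization. In those settings 15.9%, 6.18%, 10.2% and 13.2% of all genes were called higher. The cause of these differences was not tested. Each fit that leaves out a mouse rests on 2 mice, also the one without mouse 512. Estimates changed sign for Slc25a14 (0.17) and Slc25a32 (0.04) with spike-in centring, and for Slc25a43 with quantile normalization (-0.03), median centring and the value table (-0.02), normexp (-0.07) and without mouse 485 (-0.05, the lowest of the fits that leave out a mouse, which reached 0.51 without mouse 512). Signal over background limits the dim members: 8 of the 71 probes were left out.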
